A study of Mus musculus with 12 samples.

Results

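Messenger RNA of emerin-null H2K myogenic progenitors was compared with that of wildtype progenitors at day 3 of differentiation. The genes compared were the 12385 whose entry in the day 3 table had the status OK and reached 1 FPKM, a fragment number corrected for transcript length and library size, in at least 1 genotype. Over the 6 stages of the study, 14580 genes met this limit at some stage. Where a gene had several entries, the one with the largest summed FPKM stood for it. The difference between genotypes was the log2 ratio of emerin-null over wildtype FPKM after 0.1 FPKM was added to both, which understates the change of genes with low values. The limit of 1 FPKM ran through a continuous range of levels: Zfp563 entered with 0.865 FPKM in emerin-null and 1.00 FPKM in wildtype progenitors, and Cdkl1 stayed out with 0.579 FPKM in emerin-null and 0.9996 FPKM in wildtype progenitors.

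The study followed both genotypes while proliferating and at days 0, 1, 2, 3 and 4, which gave 12 samples. H2K cells carry a temperature-sensitive immortalizing antigen whose promoter interferon-γ switches on. Both genotypes were grown with 20 units/ml interferon-γ until differentiation began and then received medium with 5% horse serum and no added interferon-γ, so that at day 3 emerin-null and wildtype progenitors had each spent 3 days in that medium. No source used here names more than 1 line per genotype, so a difference between genotypes cannot be told apart from a difference between cell lines. RNA came from 3 plates per sample, and the table gives 1 FPKM value per genotype. No spread between plates can therefore be computed, no difference below has a replicate check, and no test was made. A difference of at least 2-fold is counted as higher or lower and is to be read beside the share of all genes that differed as much.

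Emerin is a protein of the inner nuclear membrane that binds lamins and chromatin regulators, and its loss causes X-linked Emery-Dreifuss muscular dystrophy. Myogenic progenitors that differentiate leave the cell cycle, switch on Myog and then the genes of the contractile apparatus, fuse with one another, and build sarcomeres inside the resulting myotubes. The exit from the cycle is marked by silencing of the S phase and mitosis genes, which the DREAM complex and the retinoblastoma family hold down in cells that have stopped dividing.

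Emd, the gene of emerin (GRCm38 chromosome X, 74254687 to 74261548, plus strand), was at 0.0421 FPKM in emerin-null and 29.6 FPKM in wildtype progenitors, a log2 ratio of -7.71. A second entry of Emd was at 0.0418 FPKM in emerin-null and 5.99 FPKM in wildtype progenitors, so the gene was low in the sample labelled emerin-null in both entries. Both samples were rich in muscle RNA. The 6 skeletal muscle markers alone at their locus summed to 5294 FPKM in emerin-null and 6417 FPKM in wildtype progenitors, while 4 endothelial markers summed to 1.19 FPKM in emerin-null and 1.15 FPKM in wildtype. Of the 10 fibroblast markers only Col1a1, Col3a1 and Dcn reached 1 FPKM, and the list summed to 160 FPKM in emerin-null and 83.8 FPKM in wildtype progenitors. Pdgfra, a defining marker of fibroblasts, was at 0.418 FPKM in emerin-null and 0.136 FPKM in wildtype. The muscle genes Acta1, Actc1 and Myh3 are not listed in the day 3 table.

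At many loci the table repeats 1 assembled gene under the symbol of each gene that lies there. Of the 12385 genes, 4257 shared a locus with another named gene and 8128 were alone, and all list counts below use those alone. Predicted genes such as those with Gm and Rik names, microRNAs, small nucleolar RNAs and read-through names did not count as another named gene. A gene called alone can therefore share its locus with such names. The predicted genes 3110070M22Rik and Gm7120 had the same entries, and each was counted as alone. Of these 8128 genes, 431 (5.30%) were at least 2-fold higher and 275 (3.38%) at least 2-fold lower in emerin-null progenitors, with a median log2 ratio of 0.01. Among all 12385 genes 511 (4.13%) were higher and 338 (2.73%) lower. The limit of 1 FPKM was passed by 356 genes in emerin-null alone and by 205 in wildtype alone. Among the 7567 genes with at least 1 FPKM in both genotypes, 229 (3.03%) were higher and 157 (2.07%) lower, and among the 9480 genes taken with no limit, 678 (7.15%) were higher and 399 (4.21%) lower.

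Many of the lowest ratios rested on entries with extreme values. The 12 genes with the smallest ratios among those reaching 5 FPKM (Nrg1, Fmn1, Fmn2, Osbp2, Rbbp8, Ino80, Pcsk6, H2-Q2, Kif3b, Kcnh8, Ccdc148 and Hpse2) had between 4496 and 4818290 FPKM in wildtype, and 11 of them were listed at 0 in emerin-null. After these values had been seen, genes were also counted without entries listed at 0 in a genotype, above 10000 FPKM or from a locus under 300 bases. Of the 7864 genes left, 386 (4.91%) were higher and 156 (1.98%) lower. A 2-fold difference in the same direction also held for 364 higher (4.63%) and 143 lower genes (1.82%) when all entries of the gene were summed, and these genes are called retained below. The spread of the log2 ratios differed with level: 90% of the genes between 1 and 5 FPKM lay between -0.76 and 1.38, and 90% of those between 20 and 100 FPKM lay between -0.41 and 0.61, and 90% of those from 100 FPKM on lay between -0.65 and 0.61.

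**Figure D1:**
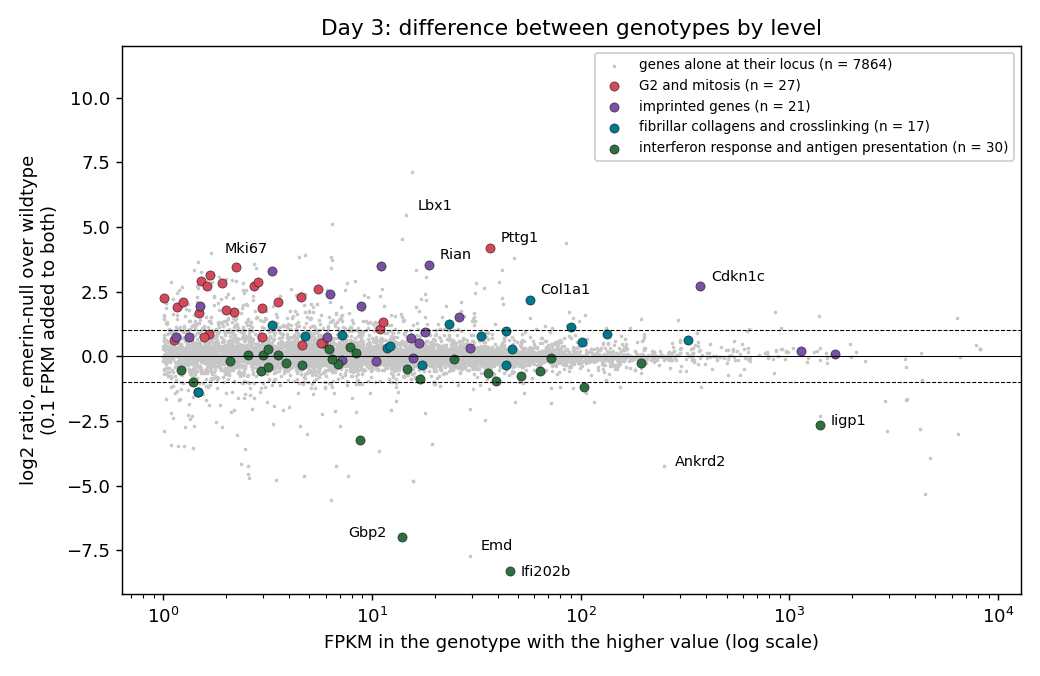
Each point is a gene alone at its locus, without entries listed at 0, above 10000 FPKM or under 300 bases (n = 7864), with its FPKM in the higher genotype on the horizontal log axis and its log2 ratio of emerin-null over wildtype on the vertical axis. Dashed lines mark 2-fold. The G2 and mitosis genes lie above 0 and mostly at low levels, Cdkn1c stands at high level with a log2 ratio of 2.71, and Ifi202b, Emd and Gbp2 lie lowest.

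Many genes of G2 and mitosis were higher in emerin-null progenitors, most of them at levels under 1 FPKM in wildtype. Of the 50 genes listed, 30 were alone at their locus and passed the limit of 1 FPKM, 22 of them in emerin-null only. A further 14 passed at a locus shared with other named genes and are not counted, since such entries can mix genes. Those left out include Cdc20, Aurka and Plk1, whose largest entries were not higher in emerin-null. The order of the others is not reported here. Of these 30, 22 were at least 2-fold higher and 1 was lower, against 5.30% and 3.38% of all genes, and the median was 2.00. Because most of them passed through the higher genotype alone, genes were also counted without the limit, still only among entries with the status OK. Entries without that status stayed out, so a choice through the higher genotype may remain. Of 35 such genes 34 were higher in emerin-null progenitors, against 4963 of all 9480. At least 2-fold higher were 26 of the 35 (7.15% of all genes), and the median log2 ratio of the 35 was 1.86. The 7 genes with at least 1 FPKM in both genotypes had 3 members past 2-fold (3.03% of all genes) and a median of 0.74, below the 0.80 of the fibrillar collagens counted likewise. The 1 lower gene was Wee1, the kinase that holds Cdk1 inactive, whose largest entry was listed at 0 in emerin-null and at 3153 FPKM in wildtype, while the other was at 1.25 FPKM in emerin-null and 1.06 FPKM in wildtype. In a bulk sample more cells of a type and more RNA per cell cannot be told apart.

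Regulators of entry into and exit from mitosis included the most abundant genes of the group. Pttg1 codes for securin, which keeps sister chromatids together until anaphase, and was at 36.6 FPKM in emerin-null and 1.91 FPKM in wildtype progenitors, a log2 ratio of 4.19. Cdk1, the kinase that drives entry into mitosis, was at 11.3 FPKM in emerin-null and 4.44 FPKM in wildtype, a log2 ratio of 1.33. Its partner cyclin B1 (Ccnb1) was at 2.84 FPKM in emerin-null and 0.300 FPKM in wildtype, a log2 ratio of 2.88. Of the other entries of Ccnb1, one was at 0.598 FPKM in emerin-null and 1.02 FPKM in wildtype, and over the summed entries its log2 ratio was 1.56. Cdc25b, a phosphatase that activates Cdk1, was at 10.97 FPKM in emerin-null and 5.28 FPKM in wildtype, just past 2-fold.

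Genes of chromosomes, kinetochores and the spindle were lower in level. Mki67, which codes for the Ki-67 protein of cycling nuclei, was at 2.23 FPKM in emerin-null and 0.112 FPKM in wildtype progenitors, a log2 ratio of 3.45. Top2a, the topoisomerase that untangles sister chromatids, was at 5.53 FPKM in emerin-null and 0.833 FPKM in wildtype, a log2 ratio of 2.59. Cenpa, the histone of centromeres, was at 4.55 FPKM in emerin-null and 0.847 FPKM in wildtype. In all 3 the wildtype level was under 1 FPKM. Further members showed the same order: the passenger kinase Aurkb had a log2 ratio of 3.16, the checkpoint kinase Bub1b 2.72, the kinetochore gene Ndc80 2.73, and the mitotic motors Kif2c, Kif23 and Kif11 had 2.92, 2.82 and 1.71. The members within 2-fold were Mad2l1, Racgap1, Smc2, Ncapg2, Ncaph, Ect2 and Cenph, with log2 ratios between 0.45 for Ncaph and 0.85 for Ect2. The condensin subunits Smc2, Ncapg2 and Ncaph were all in this group.

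**Figure D2:**
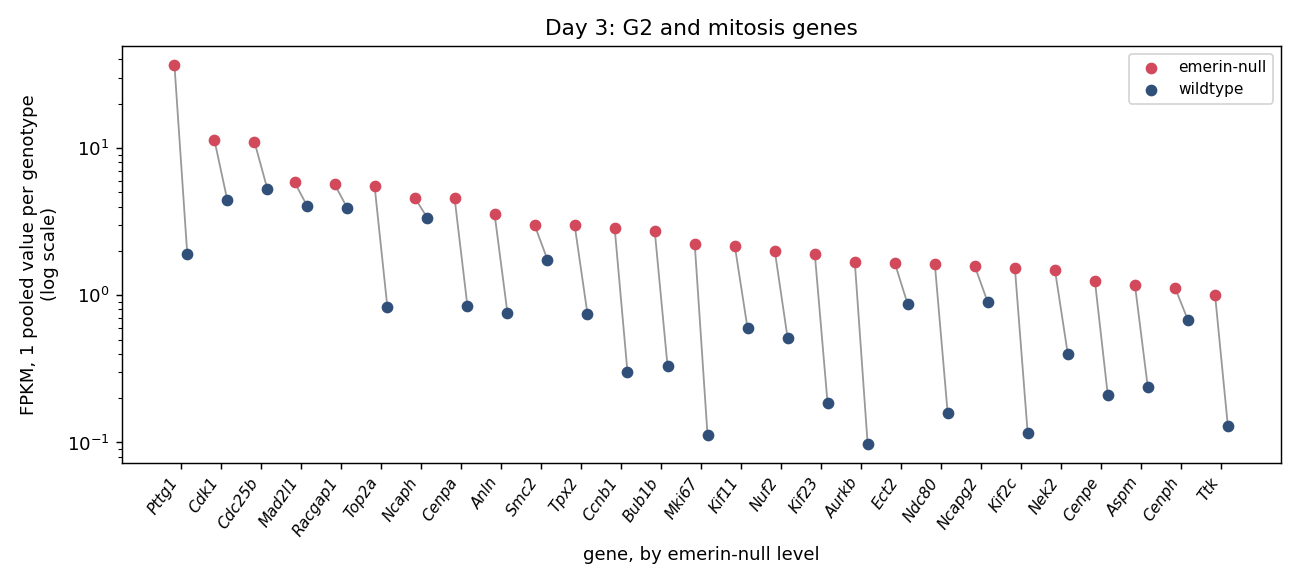
FPKM on a log axis of 27 G2 and mitosis genes alone at their locus, emerin-null in red on the left and wildtype in blue on the right of each pair, 1 pooled value each. Bub1, Espl1 and Wee1 are left out because their entry is listed at 0 in a genotype. Every wildtype point lies below its emerin-null point, with Pttg1 at the far left at 36.6 FPKM in emerin-null and 1.91 FPKM in wildtype. Of the 30 list members alone at their locus, 22 passed the limit of 1 FPKM in emerin-null alone, which favours this order.

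All of these levels were low beside those of dividing cells. For the 24 plotted genes that were alone at their locus at every stage, the median in emerin-null progenitors was 28.5 FPKM while proliferating and, over days 0 to 4 in turn, 34.1, 17.5, 3.60, 2.48 and 2.21 FPKM. The median in wildtype progenitors was 29.0 FPKM while proliferating and, over the same days, 33.3, 13.2, 1.16, 0.638 and 0.413 FPKM. For these genes both genotypes had lost most of the mitotic message by day 3. Their emerin-null median was more than 2-fold above the wildtype one from day 2 on. They had all passed the limit of 1 FPKM at day 3, which 22 of the 30 list members did in emerin-null alone. That choice favours a gap at day 3 and nearby days. Without the limit the median log2 ratio at day 3 was 1.86 over 35 genes, and the other stages were not computed that way. Pttg1 took another course. Its emerin-null level lay between 21.1 and 36.9 FPKM at all stages, while its wildtype level was 80.0 FPKM when proliferating and 53.1, 6.10 and 1.91 FPKM over days 1 to 3.

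The promoters of the 4 retained genes of this group with the highest emerin-null FPKM are shown because mitotic genes are held down through their promoters in cells that leave the cycle. The CCAAT box binds NF-Y, and the cell cycle homology region (CHR) binds the MuvB core of the DREAM complex. Each sequence is the 250 bases before the RefSeq transcription start on GRCm38.p6, in the direction of transcription, with CCAAT (or ATTGG, its other strand) and the CHR letters TTTGAA (or TTCAAA) and TTTAAA in capitals.
Pttg1, chr11:43425982-43426231, minus strand: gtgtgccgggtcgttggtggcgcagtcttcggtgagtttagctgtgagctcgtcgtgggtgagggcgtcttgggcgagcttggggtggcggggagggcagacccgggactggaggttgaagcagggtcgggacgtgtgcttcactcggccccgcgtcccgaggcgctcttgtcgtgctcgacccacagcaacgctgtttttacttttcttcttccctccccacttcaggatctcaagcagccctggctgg
Cdk1, chr10:69352913-69353162, minus strand: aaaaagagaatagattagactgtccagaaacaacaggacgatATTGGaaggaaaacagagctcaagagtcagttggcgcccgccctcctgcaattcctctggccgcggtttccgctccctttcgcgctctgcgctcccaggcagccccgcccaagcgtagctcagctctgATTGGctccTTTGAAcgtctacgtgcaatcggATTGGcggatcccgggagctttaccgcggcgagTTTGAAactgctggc
Cdc25b, chr2:131186698-131186947, plus strand: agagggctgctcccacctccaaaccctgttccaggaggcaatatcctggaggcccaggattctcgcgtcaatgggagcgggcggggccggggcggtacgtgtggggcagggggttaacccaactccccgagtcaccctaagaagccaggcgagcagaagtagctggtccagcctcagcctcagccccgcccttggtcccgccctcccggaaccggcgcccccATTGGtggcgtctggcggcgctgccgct
Top2a, chr11:99024190-99024439, minus strand: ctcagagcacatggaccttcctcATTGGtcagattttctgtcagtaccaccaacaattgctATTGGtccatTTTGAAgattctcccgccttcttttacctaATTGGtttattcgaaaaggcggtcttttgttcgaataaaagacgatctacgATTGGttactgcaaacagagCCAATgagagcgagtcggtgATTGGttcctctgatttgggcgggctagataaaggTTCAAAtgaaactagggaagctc
The Top2a window held 6 CCAAT boxes and 2 CHR matches, the Cdk1 window 3 CCAAT boxes and 2 CHR matches, the Cdc25b window 1 CCAAT box and no CHR match, and the Pttg1 window neither. Over the 18 retained G2 and mitosis genes with a window, 72.2% held a CCAAT box, 44.4% a CHR match and 38.9% both. Over 27 members of the list alone at their locus the shares were 66.7%, 44.4% and 37.0%, and over 28 S phase members 64.3%, 28.6% and 21.4%. Over the windows of 27025 genes they were 34.5%, 25.5% and 9.00%. Of 17 windows of thick and thin filament genes, 29.4% held a CCAAT box and 17.6% a CHR match. A match of these short letters describes the window and shows no binding.

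S phase genes were also higher in emerin-null progenitors, by less. Of 35 members alone at their locus, 13 were at least 2-fold higher and 1 was lower (5.30% and 3.38% of all genes), with a median log2 ratio of 0.78. Of these, 11 higher and 1 lower were retained (4.63% and 1.82% of all genes without extreme entries). The limit of 1 FPKM was passed in emerin-null alone by 6 members. Among the 29 with at least 1 FPKM in both genotypes, 9 were higher and 1 lower (3.03% and 2.07% of all genes), with a median of 0.59. The replicative helicase took part: Mcm3 was at 6.21 FPKM in emerin-null and 2.13 FPKM in wildtype, and Mcm6 at 10.2 FPKM in emerin-null and 4.16 FPKM in wildtype. The subunits Mcm4 and Mcm5 both had a log2 ratio of 1.09, and Mcm2, at 0.59, stayed within 2-fold. Cdc6, which loads the helicase onto origins, was at 2.13 FPKM in emerin-null and 0.190 FPKM in wildtype, a log2 ratio of 2.94. Pcna, the sliding clamp of the DNA polymerases, was at 11.2 FPKM in emerin-null and 4.97 FPKM in wildtype. Other replication genes had no such difference: Rrm1, a subunit of ribonucleotide reductase, was at 34.3 FPKM in emerin-null and 40.0 FPKM in wildtype, and the flap endonuclease Fen1 at 201 FPKM in emerin-null and 169 FPKM in wildtype. E2f2, an activating E2F factor, was the lower member, with 14.9 FPKM in emerin-null and 36.3 FPKM in wildtype progenitors.

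No inhibitor, pocket protein or G1 regulator among the 20 alone at their locus passed 2-fold, and the median log2 ratio of this list was -0.01. Of all genes only 5.30% were higher and 3.38% lower, so the count lies near that share. Cdkn1a (p21), an inhibitor that accumulates when muscle cells differentiate, was at 419 FPKM in emerin-null and 504 FPKM in wildtype progenitors. Cdkn1b (p27) was at 23.9 FPKM in emerin-null and 26.2 FPKM in wildtype, and the pocket protein gene Rbl1 (p107) at 22.9 FPKM in emerin-null and 22.7 FPKM in wildtype. The highest ratios of the list belonged to a pair of G1 cyclins. Ccnd1 was at 11.8 FPKM in emerin-null and 6.35 FPKM in wildtype, and Ccnd2 at 19.03 FPKM in emerin-null and 10.7 FPKM in wildtype. A further inhibitor, Cdkn1c (p57), was counted among the imprinted genes.

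**Figure D3:**
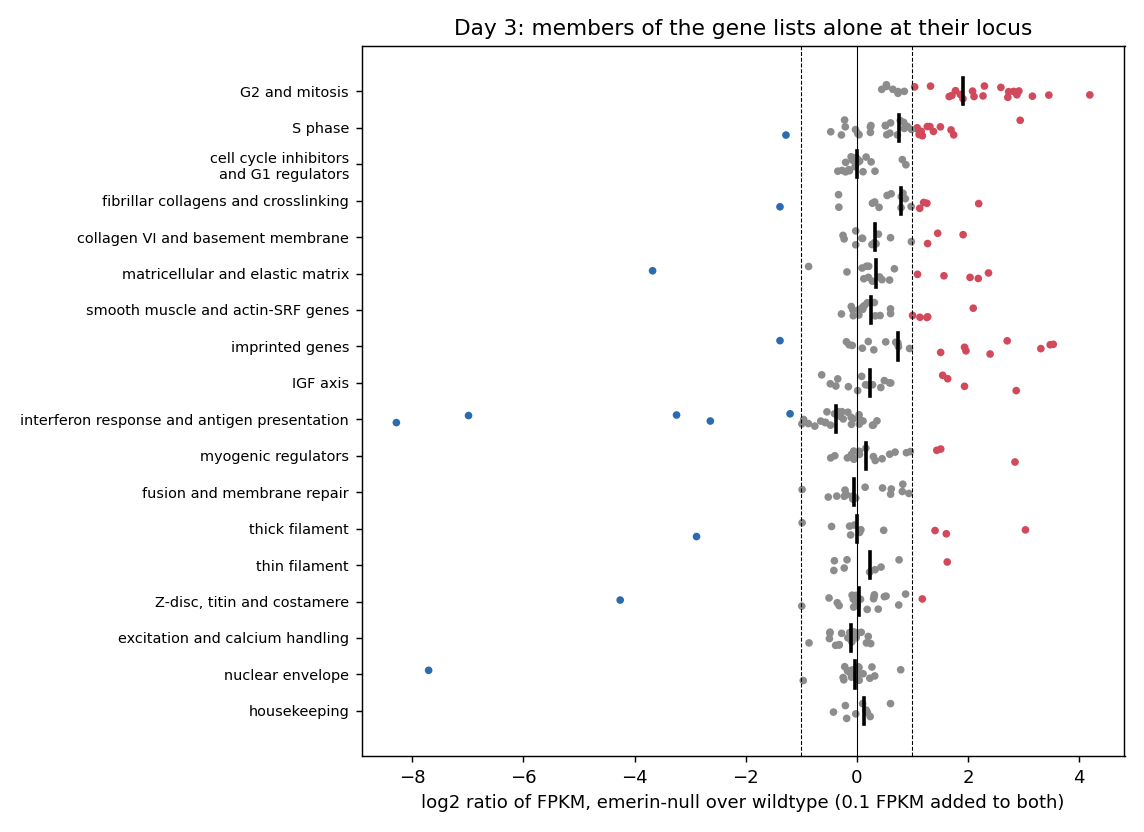
Each point is a member of a gene list alone at its locus and without entries listed at 0, above 10000 FPKM or under 300 bases, at its log2 ratio of emerin-null over wildtype FPKM at day 3. Red points are at least 2-fold higher, blue points at least 2-fold lower, black bars mark list medians and dashed lines 2-fold. The 27 G2 and mitosis genes have a median of 1.91 and all lie above 0, the interferon list has 5 members past 2-fold lower, and the muscle structure lists centre near 0. Of the 30 G2 and mitosis members alone at their locus, 22 passed the limit of 1 FPKM in emerin-null alone, which favours their place above 0. The 7 with at least 1 FPKM in both genotypes had a median of 0.74.

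Most genes of the muscle program lay within 2-fold, as did most of all genes compared. Among 21 myogenic regulators 3 were higher and 0 lower (5.30% and 3.38% of all genes), with a median log2 ratio of 0.16. The limit of 1 FPKM was passed in emerin-null alone by 2 of them. Among the 19 with at least 1 FPKM in both genotypes 2 were higher and 0 lower (3.03% and 2.07% of all genes), with a median of 0.05. Myog, the factor that drives terminal differentiation, was at 322 FPKM in emerin-null and 346 FPKM in wildtype progenitors, and Myod1 at 58.5 FPKM in emerin-null and 56.7 FPKM in wildtype. The 3 higher regulators are known from undifferentiated progenitors or as inhibitors of differentiation. Pax7, the factor of satellite cells, was at 2.41 FPKM in emerin-null and 0.249 FPKM in wildtype, a log2 ratio of 2.85. Myf5, a determination factor, was at 7.14 FPKM in emerin-null and 2.57 FPKM in wildtype. Id3, which binds the E protein partners of MyoD, was at 17.9 FPKM in emerin-null and 6.23 FPKM in wildtype. The related Id1 and Id2 were within 2-fold, with log2 ratios of 0.96 and 0.59. Pax7 had also been higher while proliferating, with 6.84 FPKM in emerin-null and 2.84 FPKM in wildtype.

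Of 17 fusion and membrane repair genes 1 passed 2-fold, Bai3, whose entry was listed at 0 in wildtype and above 10000 FPKM in emerin-null. The fusogen myomaker (Tmem8c) was at 1051 FPKM in emerin-null and 1217 FPKM in wildtype progenitors, and its partner myomixer (Gm7325) at 80.2 FPKM in emerin-null and 72.4 FPKM in wildtype. None of the 24 excitation and calcium handling genes passed 2-fold, and their median log2 ratio was -0.11. Ryr1, the calcium release channel, was at 48.4 FPKM in emerin-null and 63.2 FPKM in wildtype. None of the 19 fuel metabolism genes passed 2-fold either, and muscle creatine kinase (Ckm) was at 203 FPKM in emerin-null and 298 FPKM in wildtype progenitors. Of all genes only 5.30% were higher and 3.38% lower, so these counts in short lists lie near the share of all genes.

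Sarcomere genes held a few large differences among many small ones. Titin (Ttn) was at 31.1 FPKM in emerin-null and 30.9 FPKM in wildtype progenitors, and fast troponin T (Tnnt3) at 2747 FPKM in emerin-null and 3636 FPKM in wildtype. Of 13 thick filament genes 3 were higher and 1 lower (5.30% and 3.38% of all genes), and 2 of the 13 passed the limit of 1 FPKM in emerin-null alone. Among the 11 with at least 1 FPKM in both genotypes 2 were higher and 1 lower (3.03% and 2.07% of all genes), with a median log2 ratio of -0.05. Myh7, the slow and cardiac myosin heavy chain, was at 105 FPKM in emerin-null and 34.2 FPKM in wildtype, a log2 ratio of 1.61. Myl3, a light chain of slow and ventricular muscle, was at 1.64 FPKM in emerin-null and 0.112 FPKM in wildtype. Slow genes did not all differ, since the slow light chain Myl2 was at 60.0 FPKM in emerin-null and 58.0 FPKM in wildtype. The other higher gene was Mybpc2, the fast form of myosin binding protein C, at 7.99 FPKM in emerin-null and 2.95 FPKM in wildtype. The lower member was Myl1, a fast light chain, and it depended on the entry. One entry of Myl1 was at 398 FPKM in emerin-null and 2942 FPKM in wildtype, and the other at 2548 FPKM in emerin-null and 280 FPKM in wildtype, so no direction is given for it.

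Ankrd2, whose product responds to stretch in the sarcomere and the nucleus, had the largest difference among 22 genes of the Z-disc, titin and costameres. It was at 13.0 FPKM in emerin-null and 250.5 FPKM in wildtype progenitors, a log2 ratio of -4.26. Its relative Ankrd1 was at 187 FPKM in emerin-null and 239 FPKM in wildtype. Ankrd2 was lower at every stage and was at 0.816 FPKM in emerin-null and 36.3 FPKM in wildtype while proliferating. Xirp2, an actin binding protein, was the 1 higher gene of the list, with 5.26 FPKM in emerin-null and 2.27 FPKM in wildtype. Ankrd2 was the 1 lower gene (5.30% higher and 3.38% lower of all genes). Among 26 nuclear envelope genes Emd alone passed 2-fold, beside the same shares of all genes. Lmna, which codes for lamins A and C, was at 298 FPKM in emerin-null and 275 FPKM in wildtype, and Lemd2, of the same LEM domain family as emerin, at 19.6 FPKM in emerin-null and 19.7 FPKM in wildtype.

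Several matrix genes were at least 2-fold higher in emerin-null progenitors, and most stayed within 2-fold. Of all genes 5.30% were higher and 3.38% lower, beside which the counts of the matrix lists stand. Among 17 fibrillar collagen and crosslinking genes 4 were higher and 1 lower, with a median log2 ratio of 0.80. Of the 17, 14 lay above 0, while the median of all genes was 0.01. Col1a1, which codes for the α1 chain of type I collagen, was at 57.0 FPKM in emerin-null and 12.4 FPKM in wildtype, a log2 ratio of 2.19. Its partner chain Col1a2 was at 89.8 FPKM in emerin-null and 40.9 FPKM in wildtype, and the crosslinking enzyme Lox at 23.3 FPKM in emerin-null and 9.66 FPKM in wildtype. Col3a1 stayed within 2-fold, at 101 FPKM in emerin-null and 69.2 FPKM in wildtype. The lower member was decorin (Dcn), a proteoglycan that binds collagen fibrils, with 0.500 FPKM in emerin-null and 1.47 FPKM in wildtype. Of the 7 fibroblast markers listed at day 3, 6 had the larger value in emerin-null progenitors, and Dcn alone in wildtype. Those under 1 FPKM included Dpt, at 0.939 FPKM in emerin-null and 0.478 FPKM in wildtype, and Cd34, at 0.440 FPKM in emerin-null and 0.0687 FPKM in wildtype. The part of fibroblasts in the matrix differences was not tested.

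The 3 collagen VI genes compared differed alike. Col6a1 was at 16.4 FPKM in emerin-null and 6.73 FPKM in wildtype, and Col6a2 and Col6a3 had log2 ratios of 1.45 and 1.91. Collagen VI surrounds muscle fibres, and its mutations cause muscular dystrophies of their own. The basement membrane proteoglycan perlecan (Hspg2) was at 37.5 FPKM in emerin-null and 38.1 FPKM in wildtype. Of 18 matricellular and elastic matrix genes 5 were higher and 1 lower (5.30% and 3.38% of all genes), and 3 of the 18 passed the limit of 1 FPKM in 1 genotype alone. Postn (periostin) was at 18.1 FPKM in emerin-null and 3.91 FPKM in wildtype. Tnc (tenascin C) was also past 2-fold. The elastic fibre genes Fbn1, Emilin1 and Ltbp4 had log2 ratios of 1.09, 1.57 and 2.04, and fibronectin (Fn1) had 0.12. Efemp1 (fibulin 3) was the lower gene, with 0.750 FPKM in emerin-null and 10.8 FPKM in wildtype, a log2 ratio of -3.68. Of 20 matrix proteases and their inhibitors 3 were higher and 0 lower (5.30% and 3.38% of all genes), among them the gelatinase Mmp2 with a log2 ratio of 1.07 and Adamts10 with 1.05.

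Genes that serum response factor and its actin-sensing cofactors are known to drive were higher in 5 of 20 members and lower in 0 (5.30% and 3.38% of all genes), with a median log2 ratio of 0.25. Tagln2 (transgelin 2) was at 26.7 FPKM in emerin-null and 6.18 FPKM in wildtype progenitors, and the cytoskeletal tropomyosin Tpm4 at 39.1 FPKM in emerin-null and 16.3 FPKM in wildtype. Filamin A (Flna) was just at 2-fold. Of the actin genes, Actg2, another smooth muscle actin, was past 2-fold with 1.86 FPKM in emerin-null and 0.708 FPKM in wildtype. Acta2, the smooth muscle actin that young myotubes also express, stayed within 2-fold at 1246 FPKM in emerin-null and 1511 FPKM in wildtype, and so did cytoplasmic Actb, at 196 FPKM in emerin-null and 129 FPKM in wildtype. Of the pericyte markers, Cspg4 (NG2) was at 2.89 FPKM in emerin-null and 0.305 FPKM in wildtype, and Rgs5 stayed under 1 FPKM, at 0.212 FPKM in emerin-null and 0.0269 FPKM in wildtype. The whole list of smooth muscle and pericyte markers, most of it Acta2, summed to 1269 FPKM in emerin-null and 1523 FPKM in wildtype. Without Acta2 the other 6 summed to 22.8 FPKM in emerin-null and 11.95 FPKM in wildtype, each with the larger value in emerin-null, and the part of such cells was not tested.

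Imprinted genes, which are transcribed from the copy of 1 parent, included large differences. Of 21 members alone at their locus 8 were at least 2-fold higher and 1 was lower (5.30% and 3.38% of all genes), with a median log2 ratio of 0.74, and 5 of the 21 passed the limit of 1 FPKM in emerin-null alone. Among the 15 with at least 1 FPKM in both genotypes 5 were higher and 0 lower (3.03% and 2.07% of all genes). Cdkn1c, which codes for p57, a kinase inhibitor of differentiating muscle cells, was at 374 FPKM in emerin-null and 57.2 FPKM in wildtype progenitors, a log2 ratio of 2.71. It lies at GRCm38 chromosome 7, 143458339 to 143461050, minus strand. Cdkn1c was higher at every stage, with 239 FPKM in emerin-null and 52.5 FPKM in wildtype while proliferating. Igf2, in a neighbouring imprinted domain, was at 1137 FPKM in emerin-null and 986 FPKM in wildtype.

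The noncoding RNAs of the Dlk1-Dio3 domain on chromosome 12, which are read from the maternal copy, differed more at day 3 than while proliferating. Meg3 (109541001 to 109571726) was at 11.1 FPKM in emerin-null and 0.902 FPKM in wildtype, a log2 ratio of 3.48. Rian (109603940 to 109661716) was at 18.7 FPKM in emerin-null and 1.52 FPKM in wildtype, and Mirg (109729764 to 109749460) at 3.32 FPKM in emerin-null and 0.245 FPKM in wildtype. These 3 RNAs lie one after another on the plus strand and are not independent of each other. While proliferating, Rian was at 6.69 FPKM in emerin-null and 4.88 FPKM in wildtype. From day 1 to day 3 Rian was at 26.8, 26.1 and 18.7 FPKM in emerin-null and at 9.30, 7.91 and 1.52 FPKM in wildtype progenitors. Other higher members were the zinc finger factor Plagl1 and the adaptor Grb10, with log2 ratios of 2.40 and 1.94, and Peg10 and Peg12, with 1.51 and 1.96. Gnas was at 1654 FPKM in emerin-null and 1545 FPKM in wildtype, and the lower member was Dcn.

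Genes of insulin-like growth factor signalling were higher in 4 of 18 members and lower in 0, against 5.30% higher and 3.38% lower of all genes. Igf1, a ligand that promotes growth of myotubes, was at 3.48 FPKM in emerin-null and 1.05 FPKM in wildtype progenitors. Igfbp2, a protein that binds the ligands, was at 40.7 FPKM in emerin-null and 5.49 FPKM in wildtype, a log2 ratio of 2.87, and its relative Igfbp4 had 1.54. The receptor Igf1r and the downstream kinase Akt1 were within 2-fold, with log2 ratios of 0.28 and 0.01. The fourth higher member was Grb10, which dampens signalling of the receptors.

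Patterning and homeobox factors had 8 higher and 1 lower of 31 members (5.30% and 3.38% of all genes), with a median log2 ratio of 0.19. Of these, 7 higher and 1 lower were retained (4.63% and 1.82% of all genes without extreme entries). The limit of 1 FPKM was passed in emerin-null alone by 4 members. Lbx1, the factor of migrating limb muscle precursors, was at 14.6 FPKM in emerin-null and 0.235 FPKM in wildtype progenitors, a log2 ratio of 5.46. Six2 was at 4.80 FPKM in emerin-null and 0.221 FPKM in wildtype. Both were already apart while proliferating, when Lbx1 was at 10.97 FPKM in emerin-null and 0.303 FPKM in wildtype. Tbx1, a factor of head muscle, was at 16.2 FPKM in emerin-null and 4.25 FPKM in wildtype. The lower member was Hoxb4, with 0.223 FPKM in emerin-null and 1.79 FPKM in wildtype.

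Interferon response and antigen presentation genes had the lowest median log2 ratio of the 38 lists, at -0.37. Of 32 members 1 was higher and 6 were lower in emerin-null progenitors (5.30% and 3.38% of all genes), and 8 lay above 0, while the median of all genes was 0.01. Among them 5 lower and 0 higher genes were retained (1.82% and 4.63% of all genes without extreme entries). Of the 25 with at least 1 FPKM in both genotypes 2 were lower (2.07% of all genes), while 6 members passed the limit in wildtype alone. Iigp1, an immunity-related GTPase, was at 225 FPKM in emerin-null and 1398 FPKM in wildtype, a log2 ratio of -2.64. Its second entry was at 53.6 FPKM in emerin-null and 216 FPKM in wildtype. Psmb10, a subunit of the immunoproteasome, was at 45.3 FPKM in emerin-null and 104 FPKM in wildtype. Irf1, a transcription factor induced by interferon, stayed within 2-fold, at 20.2 FPKM in emerin-null and 39.3 FPKM in wildtype. Isg15, a marker of type I interferon, was at 68.8 FPKM in emerin-null and 72.0 FPKM in wildtype.

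The p200 genes of this list, DNA sensors encoded side by side on chromosome 1, included large differences. Ifi202b was at 0.0476 FPKM in emerin-null and 46.0 FPKM in wildtype, and at 0.294 FPKM in emerin-null and 57.9 FPKM in wildtype while proliferating. At day 4 it was at 11.1 FPKM in emerin-null and 18.5 FPKM in wildtype. Ifi203 was at 0.832 FPKM in emerin-null and 8.73 FPKM in wildtype, and Ifi204 was listed at 0 in emerin-null and at 13.2 FPKM in wildtype. These genes are alike in sequence and reads can be split among them, so their single values are uncertain. Their neighbour Mndal depended on the entry, with one at 14.5 FPKM in emerin-null and listed at 0 in wildtype, and the other at 3.76 FPKM in emerin-null and 4.22 FPKM in wildtype. Gbp2, a guanylate binding protein, was at 0.0106 FPKM in emerin-null and 14.0 FPKM in wildtype at day 3. At day 2 its entry belonged to a locus with other genes and was at 11.3 FPKM in emerin-null and 19.2 FPKM in wildtype, so these values may not count the same transcripts.

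Further retained genes with large ratios that reached 5 FPKM were singled out after their values had been seen. Cd300c, an immune receptor, was at 15.6 FPKM in emerin-null and 0.0111 FPKM in wildtype, and Folr1, a folate receptor, at 6.44 FPKM in emerin-null and 0.0885 FPKM in wildtype. Ptgis, the prostacyclin synthase and a member of the chemokine and cytokine list, was at 18.2 FPKM in emerin-null and 2.09 FPKM in wildtype. These 3 belong to unrelated pathways. The ribosomal protein gene Rpl26 was at 85.1 FPKM in emerin-null and 4.04 FPKM in wildtype, which is uncertain because ribosomal protein genes have many processed pseudogenes. Eif2s3y, a translation factor gene on the Y chromosome, was at 48.0 FPKM in emerin-null and 3.32 FPKM in wildtype, while the Y genes Ddx3y, Uty and Kdm5d had log2 ratios of 0.09, -0.05 and -0.16. At the low end F11r (junctional adhesion molecule A) was at 1.74 FPKM in emerin-null and 19.3 FPKM in wildtype.

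The choice of entry decided some large ratios. Mb21d2 was at 41.8 FPKM in emerin-null and 4.00 FPKM in wildtype in one entry and at 0.222 FPKM in emerin-null and 11.8 FPKM in wildtype in the other. Zeb1 was at 42.2 FPKM in emerin-null and 10.3 FPKM in wildtype in one entry and at 23.7 FPKM in emerin-null and 22.4 FPKM in wildtype in the other. The integrin gene Itgav had an entry with 643 FPKM in emerin-null and 306 FPKM in wildtype beside entries near 5 FPKM in both. No direction is drawn for these genes.

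The day 3 differences resembled those of days 2 and 4 more than those of earlier stages. Each stage was sampled from its own plates. Over genes measured at both stages, the log2 ratios of day 3 had a Spearman correlation of 0.80 with those of day 4 (7139 genes), 0.73 with day 2 (7055 genes), 0.48 with day 1 (6876 genes) and 0.36 with proliferating progenitors (6765 genes). These correlations are across genes of the same 2 genotypes and are given as a description. Among genes without extreme entries at both days, 293 were higher at both day 3 and day 4, which is 87.5% of 335 at day 3 and 58.3% of 503 at day 4. At day 2 and day 3 together 212 were higher, 66.0% of 321 at day 3 and 81.2% of 261 at day 2. Among lower genes 81 were shared with day 4 (65.9% of those at day 3 and 69.8% of those at day 4) and 66 with day 2 (60.0% of those at day 3 and 52.8% of those at day 2). The share of genes alone at their locus that were higher was 4.60%, 5.30% and 7.74% over days 2 to 4, and the share that were lower was 2.69%, 3.38% and 3.21%.

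**Figure D4:**
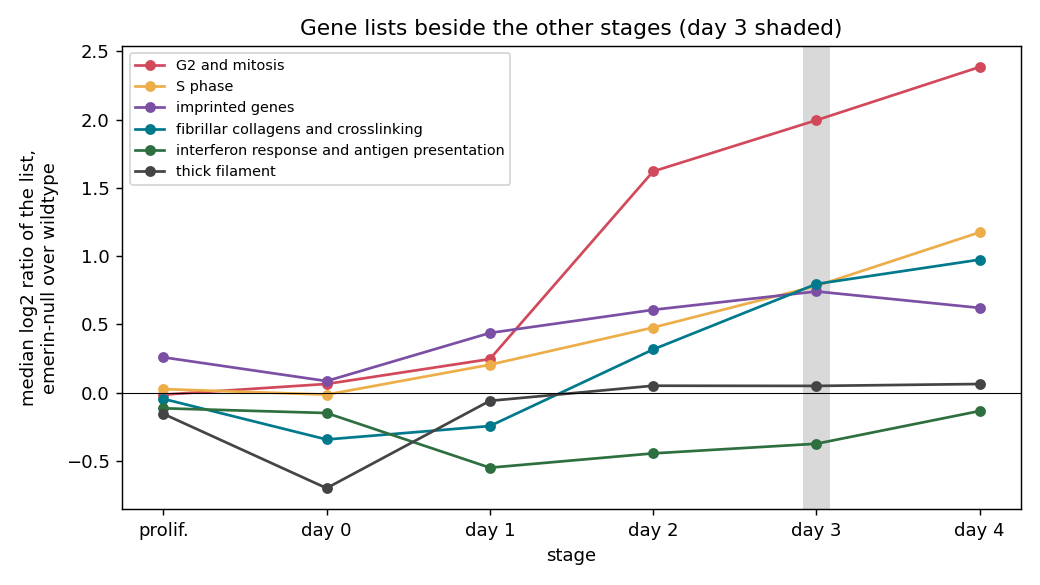
Median log2 ratio of emerin-null over wildtype FPKM for 6 gene lists at the 6 stages, with day 3 shaded. Members were alone at their locus and reached 1 FPKM in at least 1 genotype at the stage shown. The G2 and mitosis median was -0.01 while proliferating, 2.00 at day 3 and 2.38 at day 4, and the thick filament median was 0.05 at day 3.

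The lists came to day 3 by different courses. The median of the G2 and mitosis list was 0.25 at day 1 and 1.62 at day 2, before 2.00 at day 3. Fibrillar collagens had medians of -0.34, -0.24, 0.32, 0.80 and 0.97 over days 0 to 4. Col1a1 was at 4.97 FPKM in emerin-null and 22.7 FPKM in wildtype at day 0, and at 46.5 FPKM in emerin-null and 20.8 FPKM in wildtype at day 2, so its order had turned before day 3. The imprinted list lay above 0 at all stages, with medians between 0.08 at day 0 and 0.74 at day 3, and the interferon list below 0 at all stages, with its lowest median of -0.55 at day 1. Each stage has its own assembly of transcripts, so the members counted differ between stages.

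**Figure D5:**
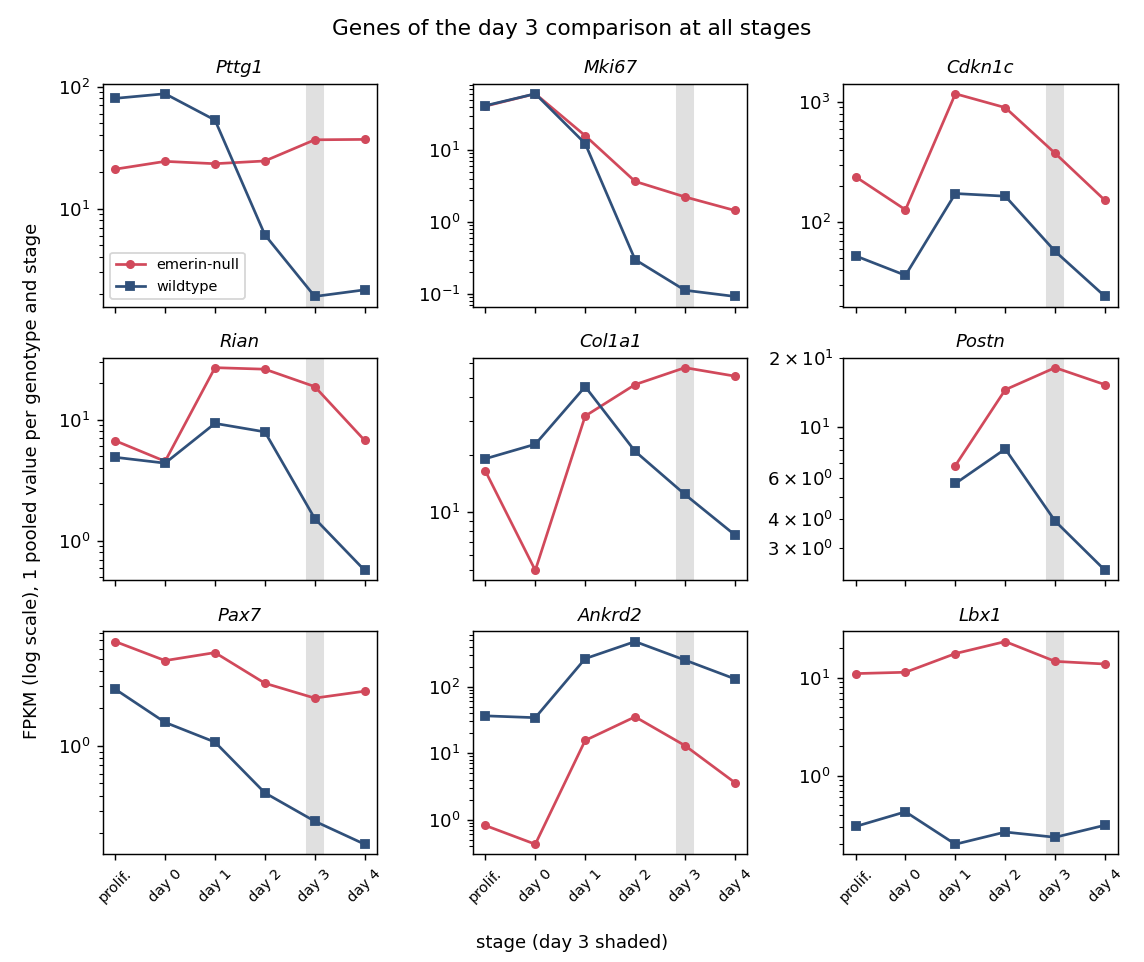
FPKM on a log axis of 9 genes at the 6 stages, emerin-null in red circles and wildtype in blue squares, 1 pooled value per point, with day 3 shaded. Postn is shown at the stages where it reached 1 FPKM. Pttg1 and Col1a1 change order between genotypes before day 3, Cdkn1c, Pax7 and Lbx1 are higher in emerin-null at all stages, and Ankrd2 is lower at all stages.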

How the data were processed

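RNA of wildtype and emerin-null H2K progenitors was sequenced on an Illumina HiScan-SQ. Per the paper and the submitters' notes, the authors checked reads with FastQC, mapped them to mm10 with TopHat and compared genotypes with Cuffdiff (releases not given in the sources used here). Temperatures for proliferating cells differ between the labels and the paper. The deposited day 3 table holds 29567 rows with 1 FPKM value per genotype, made by the authors, beside fold, test statistic, p and q columns, which were not used. It holds no read counts, so the depth per sample and its effect on low values are unknown.

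Rows with the status OK (22877) were kept, and those with a gene name turned into a date (47) were left out. Ratios were computed with 0.1 FPKM added in Python 3.11.15 with pandas 2.3.3 and numpy 2.4.6, and the code was tested on simulated data. The 38 gene lists and 8 marker lists, and the genes compared, were chosen with earlier results of these data known. Genes were named by a rule: the 12 largest and smallest ratios and the 6 largest and smallest FPKM differences among genes alone at their locus with 5 FPKM, Emd, and for each list the first 3 genes and the 3 largest and smallest ratios past 2-fold. Other genes in the text were chosen after their values were seen, and some genes are not reported here. Positions come from GENCODE M21 (1068 of 1088 named and listed genes matched at an overlapping locus) and promoters from RefSeq. Alternatives were other pseudocounts, limits, folds, scalings and ways to join entries.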

Additional observations from a re-analysis of the deposited data

Results flagged for a closer look

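Some genes had a log2 ratio past 2-fold in one direction at day 3 and past 2-fold in the other at another stage. With 1 value per genotype the difference between stages was not tested, and entries were assembled separately at each stage. Pttg1 had 4.19 at day 3, against -1.84 at day 0, -1.18 at day 1 and -1.92 while proliferating. Col1a1 had 2.19 at day 3 and -2.17 at day 0, and the smooth muscle actin Actg2 had 1.28 at day 3 and -2.66 at day 0. The kinesin Kif11 had 1.71 at day 3 and -1.39 at day 2. Epm2a, which codes for laforin, had -3.02 at day 3, against 1.71 at day 0 and 2.51 while proliferating. Sytl5 had -4.63 at day 3 and 1.42 while proliferating. Myl1 had -2.89 at day 3, against 2.14 at day 0, 2.67 at day 1 and 2.46 while proliferating, and Mb21d2 had 3.35 at day 3 and -2.16 at day 0. For Myl1 as for Mb21d2 the entries of day 3 itself had opposite signs. A second entry had 0.49 for Epm2a and -0.01 for Sytl5.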

How the results depend on the processing

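No paired analysis was possible because the tables hold 1 value per genotype, and for the same reason no replicate could be left out. The 511 higher genes became 290 with a pseudocount of 1 FPKM, 771 with no limit, 226 with a limit of 5 FPKM, 1078 at 1.5-fold and 243 at 3-fold. The 338 lower genes became 215 with a limit of 5 FPKM, 637 at 1.5-fold, 204 at 3-fold and 203 without extreme entries, an alternative chosen after seeing the data. Without those entries 70.2% of the genes past 2-fold were higher, against 60.2% with them. The ratio of Emd was -4.88 with a pseudocount of 1 FPKM and -9.15 with 0.01 FPKM. With values over 10000 FPKM left out, Rbbp8 (1.09), Ino80 (0.21) and Kif3b (0.21) changed sign, and these values were equal without extreme entries, where Wee1 (0.22) and Mndal (-0.16) changed sign as well. Of 400 list medians recomputed, 395 moved by less than the spread used as a yardstick, as did 1134 of 1273 values of named genes. The counts of list members past 2-fold were less steady. Of 800 recomputed, 78 changed by more than 1.5-fold or from none to some. Among these 78, 23 came with a limit of 5 FPKM and 21 with a pseudocount of 1 FPKM. Low FPKM values limit the mitotic genes, and the depth behind them is unknown.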

Other observations

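Genes of endoplasmic reticulum and amino acid stress were higher in emerin-null progenitors in 4 of 26 members and lower in 0, with a median log2 ratio of 0.46 and 23 members above 0. Of all genes alone at their locus 5.30% were higher and 3.38% lower, and their median log2 ratio was 0.01. Pdia4, a disulfide isomerase of the endoplasmic reticulum, was at 61.0 FPKM in emerin-null and 29.1 FPKM in wildtype progenitors. Trib3, a pseudokinase induced by stress, was at 10.97 FPKM in emerin-null and 4.45 FPKM in wildtype.

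Wnt genes went both ways, with 5 higher and 3 lower of 30 members (5.30% and 3.38% of all genes). Of the 30, 9 passed the limit of 1 FPKM in 1 genotype alone. Among the 21 with at least 1 FPKM in both 1 was higher and 1 lower (3.03% and 2.07% of all genes). The ligand gene Wnt10b was at 2.03 FPKM in emerin-null and 0.670 FPKM in wildtype, while the secreted inhibitor gene Sfrp2 was at 0.817 FPKM in emerin-null and 2.71 FPKM in wildtype. None of 22 genes of p53, damage and apoptosis passed 2-fold (5.30% higher and 3.38% lower of all genes), and the median of that list was -0.03.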
